A study of Homo sapiens with 6 samples.

Results

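AHNAK, the annexins and the S100 proteins meet at the inner face of the plasma membrane. AHNAK is a giant scaffold protein built of repeats, and its tail binds a complex of annexin A2 and S100A10 under the membrane. Annexins are a family of proteins that bind negatively charged phospholipids when calcium is present, and they act in membrane repair, vesicle traffic and the contact of the membrane with actin. S100 proteins are small calcium sensors that pair with one another and dock on target proteins, among them annexins, and several of them are abundant in colorectal tumours.

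The 10 genes described here are AHNAK, its paralog AHNAK2, ANXA1, ANXA2, ANXA3, S100A4, S100A6, S100A10, S100A11 and S100P, which are 10 of the 56638 gene symbols in the count files. They were chosen by their gene family with earlier results of these libraries known, because AHNAK had a much lower count after GLCC1 siRNA. Their differences between the conditions are therefore a description. How many of them were under an adjusted p of 0.05 is stated beside the share of all genes that were, and no p-value of theirs is used as evidence. The study compared the expression profiles of colorectal cancer cells after knockdown of GLCC1 (lncRNA-AF339830 in the labels) with those of cells given a negative control siRNA. GLCC1 is a long noncoding RNA whose role in colorectal tumour formation was in question. RNA of 3 libraries with control siRNA and 3 with lncRNA-AF339830 siRNA was sequenced, and no library lacked a transfection, so that every sample had received an siRNA. The labels name SW480 cells, a human colorectal cancer line, at passages 16-19, whereas the methods of the study name DLD-1 for this experiment. The genotype label gives siRNA1 in all libraries, whereas the titles number the libraries of each condition from siRNA1 to siRNA3. The numbers of the titles were read here as replicates. Whether they name different siRNAs could not be told. The libraries named by their titles as control carry AF123 in the library name, and those titled lncRNA-AF339830 siRNA carry NC. The titles were followed here, and if the library names were right instead, every difference below would change its sign. GLCC1 and AF339830 are not among the gene symbols of the files, so the knockdown itself could not be checked.

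The control libraries held 15002165 to 19042516 read pairs on genes, and the GLCC1 siRNA libraries held 11948790 to 18390975. GLCC1 siRNA replicate 2 was the smallest and stood apart from the others. Its counts differed from those of the other GLCC1 siRNA libraries by a chi-square of 16.3 and 17.1 for each degree of freedom, against 1.84 to 3.84 for the remaining pairs of the same condition. Reads outside annotated genes made up 9.82% to 10.1% of control libraries and 10.96% to 12.7% of libraries with GLCC1 siRNA. Of 12 marker genes of the colon epithelium, 10 reached a level of 1 CPM (counts scaled to library size, as explained with the results) in every library, whereas KRT20 and GPA33 were lower than that in at least 1 library. Their summed level ranged from 5813 to 6349 CPM with control siRNA and from 2486 to 2899 CPM with GLCC1 siRNA, since 7 of them fell, keratins among them, and CDH17 rose. Of the markers of fibroblasts, leukocytes and endothelium, COL1A2, DCN, LUM, PTPRC, PECAM1, CDH5 and KDR had no count in any library. Their summed levels were between 16.2 and 20.0 CPM against 11.1 and 13.7 for 8 fibroblast genes, between 3.57 and 5.00 against 3.74 and 6.51 for 7 leukocyte genes, and between 0.54 and 1.03 against 0.32 and 1.45 for 5 endothelial genes. Most of the fibroblast sum came from COL1A1, with means of 13.4 CPM against 7.37, and PDGFRB, with 4.56 against 4.82. COL1A1 fell, and FAP, at only 0.02 CPM against 0.45, rose (adjusted p under 0.05 in edgeR). CD14 made up most of the leukocyte sum, at 3.29 CPM against 4.39, and was not under that adjusted p. The part of these differences in the results was not tested. In RNA of a whole culture, fewer cells that express a gene and less RNA in each cell cannot be told apart. The labels do not say that the libraries came from separate cultures, so p-values measure the spread between these samples, which may be technical.

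The genes lie at the following places in the human genome (hg19, GENCODE annotation). AHNAK has 5 exons on the minus strand of chr11:62201014-62323707, and AHNAK2 has 7 on the minus strand of chr14:105403581-105444711, in their canonical transcripts. ANXA1 lies at chr9:75766781-75785309 and ANXA3 at chr4:79472901-79531605, both on the plus strand, and ANXA2 at chr15:60639333-60695082 on the minus strand, with 13 exons in each. S100A10 (chr1:151955391-151966335), S100A11 (chr1:152004982-152020383), S100A6 (chr1:153507075-153508720) and S100A4 (chr1:153516089-153522612) share the minus strand of chromosome 1, and S100P stands alone at chr4:6695605-6698897 on the plus strand. All 10 are protein-coding genes.

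The region just before the start of transcription was compared between the members, because 9 of them were lower and ANXA1 was higher after GLCC1 siRNA. The 150 bases before the start are printed for the 3 partners of the complex (AHNAK, ANXA2 and S100A10) and for ANXA1, S100A4 and S100P, from the RefSeq promoter table of GRCh38.p14. Capitals mark TATAAA, the core of the TATA box, and TGANTCA, the word of AP-1 factors.
AHNAK, chr11:62545827-62545976, minus strand: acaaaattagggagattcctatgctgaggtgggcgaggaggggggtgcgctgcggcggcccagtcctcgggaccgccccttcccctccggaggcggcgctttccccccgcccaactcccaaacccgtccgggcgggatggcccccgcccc
S100A10, chr1:151993860-151994009, minus strand: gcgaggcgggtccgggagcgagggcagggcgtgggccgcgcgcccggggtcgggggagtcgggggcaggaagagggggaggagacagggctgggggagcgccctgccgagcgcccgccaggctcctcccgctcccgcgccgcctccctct
ANXA2, chr15:60397987-60398136, minus strand: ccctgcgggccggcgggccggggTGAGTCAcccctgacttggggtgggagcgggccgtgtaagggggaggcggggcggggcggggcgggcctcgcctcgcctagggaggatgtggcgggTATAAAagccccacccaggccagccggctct
ANXA1, chr9:73151715-73151864, plus strand: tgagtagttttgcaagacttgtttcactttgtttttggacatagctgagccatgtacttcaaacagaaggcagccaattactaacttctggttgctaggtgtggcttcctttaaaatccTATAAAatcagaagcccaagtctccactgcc
S100A4, chr1:153545807-153545956, minus strand: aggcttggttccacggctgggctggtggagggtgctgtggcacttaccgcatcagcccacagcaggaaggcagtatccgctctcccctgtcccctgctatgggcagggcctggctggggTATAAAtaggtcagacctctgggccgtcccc
S100P, chr4:6693728-6693877, plus strand: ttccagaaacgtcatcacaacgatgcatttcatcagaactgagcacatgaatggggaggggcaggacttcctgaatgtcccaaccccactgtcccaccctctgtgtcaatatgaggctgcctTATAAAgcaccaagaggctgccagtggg

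Over the 300 bases from 250 before to 50 after the start, all 10 genes had an entry in that table, AHNAK2 with 2. TATAAA was found on either strand in 4 of the 10 genes, starting 31 bases before the start in ANXA1, ANXA2 and S100A4 and 28 bases before it in S100P, and in 11.5% of all 35116 promoters. TGANTCA was found in ANXA2 alone, 127 bases before its start, and in 7.71% of all promoters. CACGTG, the word of c-Myc and its relatives, was found in no promoter of the 10 genes and in 7.26% of all promoters. The GC content of the promoter of ANXA1 was 37.7%, lower than in 91.9% of all promoters, whereas that of the other 9 genes was between 56.0% and 78.0%, against a median of 58.7% over all promoters. These matches describe the letters of the windows and do not show binding.

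All 10 genes had enough counts to be compared, and their level in each library is given in CPM, the count scaled to library size, after TMM scaling, which also corrects for composition. Each fold change divides the GLCC1 siRNA level by the control level. Its standard error (SE) was derived from the edgeR test, as the size of the log2 fold change over the square root of the F statistic. Of the 10 genes, 9 were lower and ANXA1 was higher after GLCC1 siRNA, and no library of one condition overlapped the other. All 10 were under an adjusted p of 0.05 in edgeR, as were 31.6% of all 23074 genes compared, 16.8% lower and 14.9% higher. Among the 10378 genes whose mean was 10 CPM or more, 29.8% were so in the lower and 20.1% in the higher direction. Every GLCC1 siRNA library was below every control library in 37.8% of these 10378 genes and above in 26.1%. The members were chosen with this contrast known, so that nothing is read from their count against these shares. Their median log2 fold change was -0.85, against 0.03 for all genes compared and -0.07 for those of at least 10 CPM. Their joint share of the counts was 0.371% to 0.382% with control siRNA and 0.175% to 0.192% with GLCC1 siRNA. AHNAK alone, which was chosen for its lower count, made up 0.195% to 0.198% with control siRNA and 0.066% to 0.073% with GLCC1 siRNA.

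**Figure D1:**
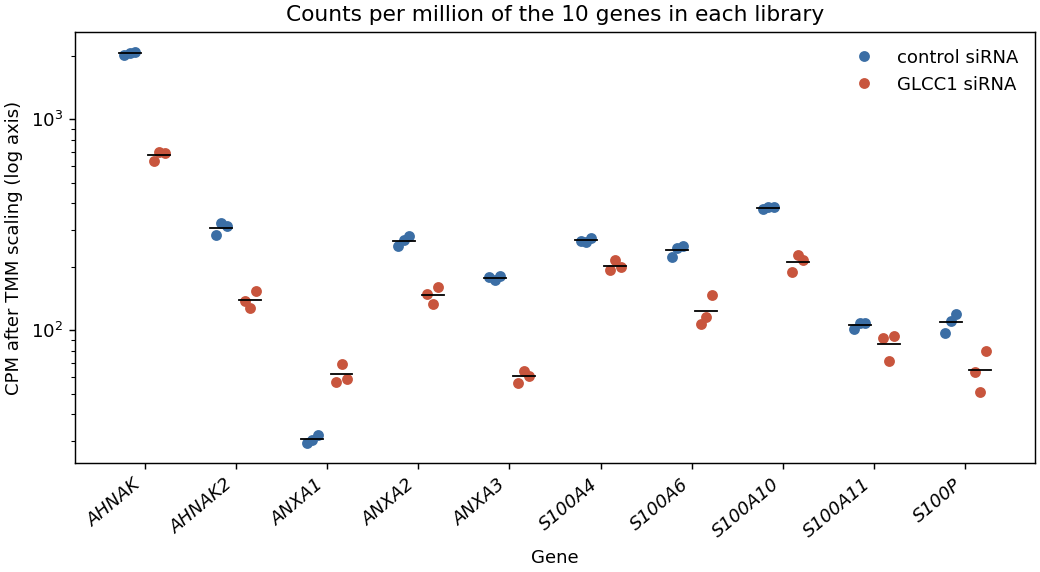
Level of the 10 genes in each library, in CPM after TMM scaling on a log axis; blue points are the control siRNA libraries, red points the GLCC1 siRNA libraries, and the bars are the means of 3 libraries. The conditions do not overlap in any gene, and ANXA1 is the only one that is higher after GLCC1 siRNA.

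AHNAK, the scaffold, had 2009.5, 2067 and 2084 CPM in the control libraries and 633, 698 and 690.3 CPM in the GLCC1 siRNA libraries. All GLCC1 siRNA libraries were near a common, lower level, with means of 2054 ± 39.1 CPM (SD, n = 3) and 674 ± 35.5 CPM (SD, n = 3). The fitted level after GLCC1 siRNA was 32.8% of the control, a log2 fold change of -1.61 (SE 0.075). From the lowest log2 fold change upwards, AHNAK was number 67 of the 10378 genes of at least 10 CPM. AHNAK2, which like AHNAK encodes a very large repeat protein with a PDZ domain, had 282, 322 and 310.4 CPM in the controls and 137, 127 and 153 CPM after GLCC1 siRNA. Its level was 45.7% of the control, a log2 fold change of -1.13 (SE 0.091). The exons of AHNAK2 share 518 of 18788 bases with PLD4 on the other strand, and the strand setting of the counting is not given in the sources used here, so that reads of the antisense gene may be included.

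The transcripts of both scaffolds are among the longest of the genome, with 18761 bases for AHNAK and 18335 for AHNAK2. In genes with at least 15 kb of exon sequence and a mean of at least 1 CPM, 660 in number, the median log2 fold change was 0.02. Exon sequence was taken over all annotated transcripts of a gene, so such a gene need not have any transcript of that length. AHNAK had the 3rd and AHNAK2 the 7th lowest log2 fold change of these long genes. A regression of all fold changes on gene length and GC content left AHNAK at -1.68.

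The annexins went in both directions. ANXA2, the partner of S100A10 and a receptor of plasminogen on the cell surface, had 251, 268 and 279.6 CPM in the control libraries and 149, 133 and 159.8 CPM after GLCC1 siRNA. The level was 55.3% of the control, a log2 fold change of -0.85 (SE 0.089). ANXA3, also called lipocortin III, had 179, 173 and 182 CPM in the controls against 56.4, 64.2 and 60.9 CPM. This was 34.0% of the control, with a log2 fold change of -1.56 (SE 0.085), and its libraries varied little within either condition (SD 4.32 and 3.94 CPM, n = 3).

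ANXA1, a mediator of the anti-inflammatory action of glucocorticoids that signals through formyl peptide receptors, was the exception. It had 29.3, 30.4 and 31.9 CPM in the control libraries and 57.2, 69.7 and 59.2 CPM in the GLCC1 siRNA libraries. The lowest GLCC1 siRNA library was thus well above the highest control library, at a fold change of 2.03 (log2 fold change 1.02, SE 0.10). Of the genes of at least 10 CPM, 98.0% had a log2 fold change at or below that of ANXA1.

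S100A10, also called p11, which holds annexin A2 in the complex and unlike its relatives does not respond to calcium, had 375, 385 and 382 CPM in the control libraries and 189.9, 227 and 215 CPM after GLCC1 siRNA. This was 55.4% of the control, a log2 fold change of -0.85 (SE 0.084). S100A6, or calcyclin, a protein of dividing cells, had 222, 244 and 252 CPM in the controls and 107, 116 and 147 CPM after GLCC1 siRNA. Its level was 51.5% of the control, with a log2 fold change of -0.96 (SE 0.11). The GLCC1 siRNA libraries of S100A6 were less even than those of S100A10, with replicate 3 the highest. In S100A6, 37 of 971 exon bases are shared with a gene on the other strand.

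S100P, which binds ezrin and the receptor RAGE, had the least even libraries of the 10 genes. It had 97.4, 111 and 119 CPM in the control libraries and 63.4, 51.3 and 79.5 CPM in the GLCC1 siRNA libraries, with SDs of 11.1 and 14.2 CPM (n = 3). The level was 59.4% of the control, a log2 fold change of -0.75 (SE 0.14). S100A4, which binds non-muscle myosin and is known for its part in metastasis, had 266, 263 and 273 CPM against 193, 214 and 199 CPM. It was at 75.6% of the control, with a log2 fold change of -0.40 (SE 0.078).

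S100A11, or calgizzarin, a partner of annexin A1, had the smallest difference. It had 101, 109 and 109 CPM in the control libraries and 92.1, 71.6 and 94.1 CPM after GLCC1 siRNA, a log2 fold change of -0.31 (SE 0.11). The lowest control library was separated from the highest GLCC1 siRNA library by a narrow gap, and the spread after GLCC1 siRNA came mostly from replicate 2. With library totals as the only scaling, the log2 fold change was -0.18, and without GLCC1 siRNA replicate 2 it was -0.19. S100A11 left the genes under an adjusted p of 0.05 with library totals, and also when any one of the control libraries was left out.

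Without GLCC1 siRNA replicate 2, the log2 fold change was -1.63 for AHNAK, -1.07 for AHNAK2, 0.93 for ANXA1, -0.78 for ANXA2, -1.60 for ANXA3 and -0.61 for S100P. For S100A4, S100A6 and S100A10 it was -0.44, -0.91 and -0.91. This library was the highest of its condition in AHNAK, ANXA1, ANXA3, S100A4 and S100A10, and the lowest in AHNAK2, ANXA2, S100A11 and S100P, so that it did not stand to one side of the other libraries over the 10 genes.

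**Figure D2:**
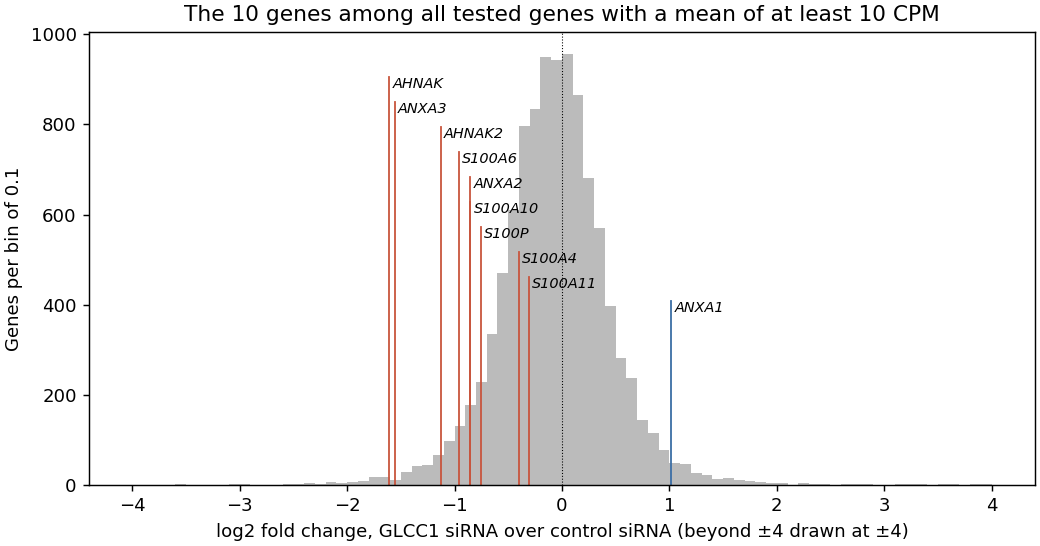
Log2 fold changes of the 10378 genes whose mean was 10 CPM or more (grey bars, genes per bin of 0.1), with the 10 genes as vertical lines of arbitrary height, red where lower and blue where higher after GLCC1 siRNA. AHNAK at -1.61 and ANXA3 at -1.56 stand in the lower tail, ANXA1 at 1.02 in the upper tail, and S100A11 at -0.31 and S100A4 at -0.40 inside the bulk of all genes.

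The partners of the AHNAK complex were set against each other within each library, which does not depend on the scaling between libraries. The log2 ratio of the counts of S100A10 and ANXA2 was 0.58, 0.52 and 0.45 in the control libraries and 0.35, 0.78 and 0.43 after GLCC1 siRNA. Its mean differed by 0.002 between the conditions, far less than the SD of 0.23 among the GLCC1 siRNA libraries, and the conditions overlapped. The overlap rested on GLCC1 siRNA replicate 2, at 0.78 above every control library, whereas replicates 1 and 3 were below every control library. The small difference of the means rested on that library too. The log2 ratio of AHNAK to S100A10 was 2.42, 2.43 and 2.45 in the controls and 1.74, 1.62 and 1.68 after GLCC1 siRNA, a difference of -0.75. For AHNAK to AHNAK2 the difference was -0.48, from 2.76 ± 0.076 to 2.28 ± 0.15 (SD, n = 3). The count of AHNAK was thus lower relative to S100A10, ANXA2 and AHNAK2 in every GLCC1 siRNA library than in any control library. AHNAK was chosen for its much lower count, so these ratios restate that difference and are no separate result.

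The count of ANXA2 is uncertain, because reads can be split between it and ANXA2P2, a processed pseudogene at chr9:33624272-33625291 (hg19, plus strand). ANXA2P2 is a copy of the coding sequence of ANXA2 in which 16 of 1020 bases differ (98.4% identical). Bases 101 to 220 of that sequence are shown, counted from the start codon, because they hold 5 of the differences, which are in capitals. In ANXA2 the stretch spans exons 3 and 4 (chr15:60674541-60674588 and chr15:60656651-60656722, minus strand), and in ANXA2P2 it is 1 block at chr9:33624372-33624491.
ANXA2: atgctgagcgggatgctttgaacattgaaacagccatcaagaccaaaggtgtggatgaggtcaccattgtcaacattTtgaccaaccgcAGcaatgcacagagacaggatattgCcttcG
ANXA2P2: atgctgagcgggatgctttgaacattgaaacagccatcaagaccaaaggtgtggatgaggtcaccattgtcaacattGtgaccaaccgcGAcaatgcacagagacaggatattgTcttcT
Of the 100-base words of the canonical ANXA2 transcript, 287 of 1455 (19.7%) occur unchanged in ANXA2P2, and no such word of the other 9 genes occurs in an annotated transcript outside the 10 genes. With words of 150 bases, the length of 1 read of a pair by the study's methods, 115 of 1405 (8.19%) occur in ANXA2P2.

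ANXA2P2 had 339.6, 354 and 374 CPM in the control libraries and 187, 198 and 210.0 CPM in the GLCC1 siRNA libraries, which is more counts than ANXA2 itself in every library. The ratio of the counts was between 1.26 and 1.49. Its log2 fold change of -0.84 (SE 0.081) was close to that of ANXA2, and with the counts of both added together the log2 fold change was -0.85. Of the other copies and namesakes, ANXA2P1 had a mean of 0.18 CPM and a log2 fold change of -0.98 that did not pass (adjusted p = 0.34).

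Levels can be set between the genes only per length, and they are given in CPM per kb of all annotated exons. In the control libraries, S100A10 was at 376 ± 4.90 (SD, n = 3), S100A4 at 283 ± 5.11, S100A6 at 246 ± 15.8, S100P at 232 ± 23.5 and S100A11 at 164 ± 6.79 CPM per kb. AHNAK followed at 105 ± 2.01, ANXA3 at 36.3 ± 0.88, ANXA2 at 23.0 ± 1.24, AHNAK2 at 16.2 ± 1.10 and ANXA1 at 6.86 ± 0.30 CPM per kb. In this order S100A6 and S100P overlapped in their libraries, and no other neighbours did. After GLCC1 siRNA, S100A4 (214 ± 11.7 CPM per kb) and S100A10 (208 ± 18.9) overlapped at the top, followed by S100P, S100A11 and S100A6 at 137 ± 30.1, 132 ± 19.2 and 127 ± 21.8, which overlapped too. AHNAK was at 34.6 ± 1.83 CPM per kb, and ANXA1 at 13.9 ± 1.51 overlapped ANXA2 at 12.7 ± 1.18 and ANXA3 at 12.4 ± 0.80, with AHNAK2 the lowest at 7.41 ± 0.70. The levels of ANXA2 leave out the reads counted on ANXA2P2, which had more counts in every library. The place of ANXA2 among the genes is therefore uncertain in both conditions. The order also depends on the length used. With the canonical transcript, the controls of ANXA2 were at 171 ± 9.23 and of ANXA3 at 124 ± 3.01 CPM per kb, above AHNAK at 109 ± 2.08, since the annotated exons of ANXA2 cover 11574 bases and its canonical transcript 1554.

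The 5 genes whose profile over the 6 libraries was nearest to that of AHNAK, among genes of at least 10 CPM, were YKT6, PRDX3, ANXA3, B4GALT5 and SEC22B. The measure was the root mean square difference in log2 CPM after subtraction of the control mean, and it was 0.046, 0.047, 0.049, 0.056 and 0.061. ANXA3 is thus the only other gene of the 10 among them. YKT6 and SEC22B are membrane fusion proteins of the SNARE family, PRDX3 is a mitochondrial peroxidase and B4GALT5 a galactosyltransferase, and their log2 fold changes were -1.60, -1.67, -1.63 and -1.56 for YKT6, PRDX3, B4GALT5 and SEC22B.

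The other members of both families show whether the direction extended beyond the 10 genes. Of 27 other annexin and S100 genes, 18 had enough counts to be compared, and 5 of these fell and 2 rose in edgeR (adjusted p under 0.05), while 11 did not pass. Their median log2 fold change was -0.20, against 0.03 for all genes compared, and the share that passed stands beside 31.6% of all genes. The 8 genes without a count in any library were ANXA8, S100A7, S100A7A, S100A7L2, S100A8, S100A12, S100B and S100G, and S100A8 and S100A12 are known from myeloid cells.

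Of the other annexins, ANXA5, which binds phosphatidylserine and gives the common stain for dying cells, fell the most. It had 237, 229 and 236 CPM in the control libraries and 59.3, 78.9 and 68.8 CPM after GLCC1 siRNA, a log2 fold change of -1.77 (SE 0.10, adjusted p = 7.4e-08). ANXA4, an annexin of epithelia, fell from 74.5 ± 2.52 to 39.96 ± 2.57 CPM (SD, n = 3; log2 fold change -0.90, adjusted p = 6.3e-06 from edgeR). ANXA11 fell by 0.29 on the log2 scale (adjusted p = 0.016), and with library totals as the only scaling its change of -0.17 did not pass (adjusted p = 0.13). It also did not pass without control siRNA replicate 2 (adjusted p = 0.095) or replicate 3 (adjusted p = 0.083).

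ANXA6, an annexin with a duplicated core, rose from 148 ± 6.19 to 189 ± 15.7 CPM (SD, n = 3; log2 fold change 0.35, adjusted p = 0.0069 from edgeR). ANXA13, an annexin of the intestinal epithelium, rose from 1.38 ± 0.22 to 3.22 ± 0.68 CPM (SD, n = 3; log2 fold change 1.20, adjusted p = 0.0018 from edgeR). ANXA7 and ANXA9 had log2 fold changes of 0.12 (adjusted p = 0.30) and 0.29 (adjusted p = 0.11). Both passed with library totals as the only scaling, at 0.24 (adjusted p = 0.041) and 0.41 (adjusted p = 0.024), and ANXA9 also without GLCC1 siRNA replicate 2 (0.39, adjusted p = 0.0029).

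Of the other S100 genes, S100A16 and S100A14 fell. S100A16 had 131, 142 and 137 CPM in the controls and 70.1, 54.9 and 77.4 CPM after GLCC1 siRNA, a log2 fold change of -1.01 (SE 0.11, adjusted p = 1.6e-05). S100A14, an epithelial S100 protein, went from 92.1 ± 4.61 to 57.8 ± 7.91 CPM (SD, n = 3; log2 fold change -0.67, adjusted p = 2.6e-04 from edgeR). S100A13 (log2 fold change -0.33, adjusted p = 0.12) and S100A2 (-0.22, adjusted p = 0.38) did not pass.

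**Figure D3:**
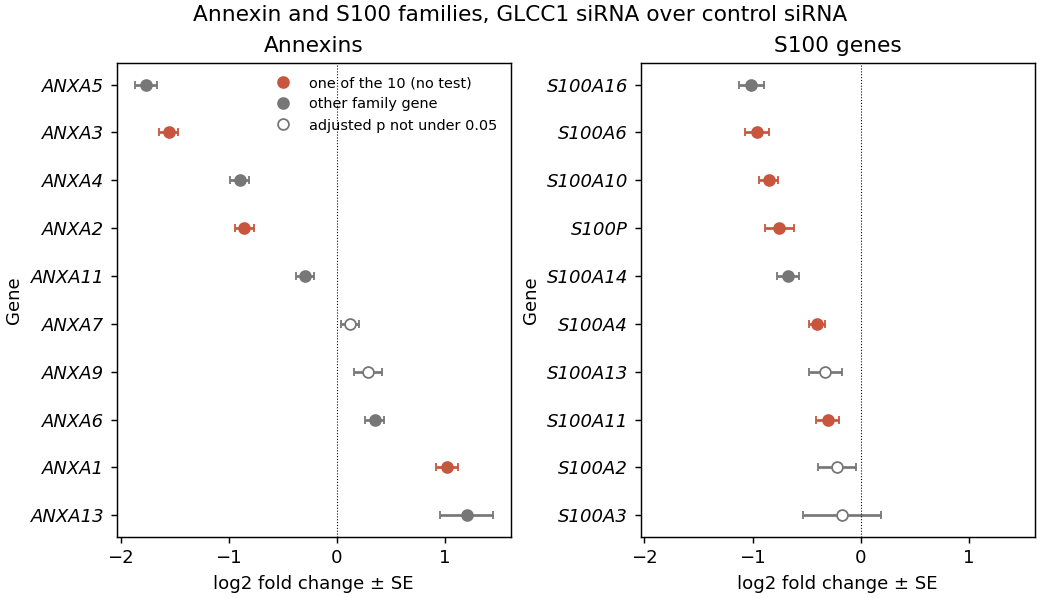
Log2 fold change, GLCC1 siRNA over control siRNA, with SE derived from the edgeR test, for annexin and S100 genes whose mean was 1 CPM or more. Red points are the 10 genes, grey points the other family genes, and open points did not pass an adjusted p of 0.05. Annexins lie on both sides of 0, from ANXA5 at -1.77 to ANXA13 at 1.20, whereas all S100 genes shown lie below 0. Of the S100 genes under that mean, S100A1 (0.20) and S100Z (0.37) were above 0, S100A5 (-1.22) and S100A9 (-1.97) below, and none passed.

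Most S100 genes stand in a cluster on chromosome 1, and 4 of the 10 genes belong to it. S100A10 and S100A11 are 38.6 kb apart at one end, and S100A6 and S100A4 are 7.37 kb apart, 1487 kb further on. The S100 genes between S100A11 and S100A6 had a mean of 0.06 CPM (S100A9) or no count at all (S100A12, S100A8, S100A7A and S100A7). Neighbours differed in size of change. S100A10 at -0.85 stood beside S100A11 at -0.31, S100A6 at -0.96 near S100A4 at -0.40, and S100A16 at -1.01 beside S100A14 at -0.67 and S100A13 at -0.33, all log2 fold changes. These differences between neighbours were not tested.

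**Figure D4:**
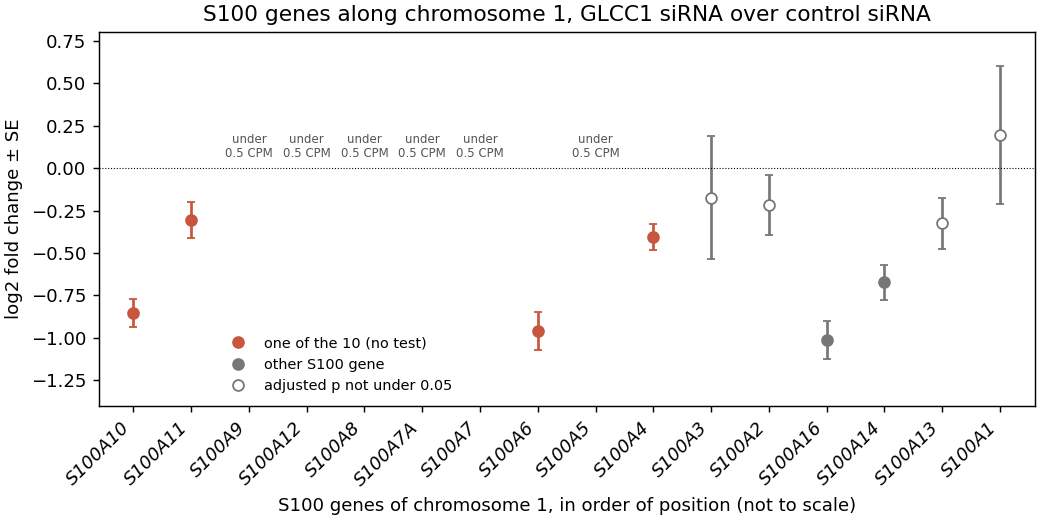
Log2 fold change with SE derived from the edgeR test for the S100 genes of chromosome 1 in order of position, not to scale. Red points are members of the 10 genes, grey points other S100 genes, open points did not pass an adjusted p of 0.05, and genes under 0.5 CPM carry no point. S100A10 at -0.85, S100A6 at -0.96 and S100A16 at -1.01 have the lowest values, and each has a neighbour with a smaller difference.

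The proteins that work with the 10 genes were followed in a list of 40 genes of membrane repair, plasminogen activation, kinases, receptors and binding partners. Of these, 39 were compared, 6 rose, 9 fell and 24 did not pass (edgeR, adjusted p under 0.05), with a median log2 fold change of -0.11. Of all genes compared, 14.9% rose and 16.8% fell, 31.6% in all. The genes that rose were SRC, MYH9, HLTF, DLC1, PRX and PLCG1, and those that fell were MYOF, CAPN2, CAPNS1, PDCD6IP, CHMP4B, PLAUR, EGFR, EZR and TRPV6. The number that passed was 9 without control siRNA replicate 1, where only 2 rose, and 20 without GLCC1 siRNA replicate 2. Only 3 rose without GLCC1 siRNA replicate 1 or without replicate 3.

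In membrane repair, CAPN2, the catalytic subunit of m-calpain, a calcium-dependent protease, had 294, 307 and 298 CPM in the control libraries and 138, 169.9 and 169.7 CPM after GLCC1 siRNA. It fell by 0.91 on the log2 scale (SE 0.092, adjusted p = 6.9e-06). PDCD6IP, or ALIX, which recruits the ESCRT machinery to wounds, fell from 291 ± 6.46 to 218 ± 13.95 CPM (SD, n = 3; log2 fold change -0.41, adjusted p = 0.0012 from edgeR). CAPN1, the catalytic subunit of the other common calpain, had a log2 fold change of -0.22 that did not pass (adjusted p = 0.19).

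In plasminogen activation and growth signals, PLAUR, the urokinase receptor, fell from 52.7 ± 6.13 to 33.1 ± 3.88 CPM (SD, n = 3; log2 fold change -0.67, adjusted p = 5.3e-04 from edgeR). EGFR, the receptor kinase that phosphorylates annexin A1, had 299.5, 318 and 297 CPM in the control libraries and 194, 195 and 196 CPM after GLCC1 siRNA. Its log2 fold change was -0.64 (SE 0.075, adjusted p = 2.4e-05). Plasminogen itself, PLG, had no count in any library.

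The genes named next are listed as partners or relatives of AHNAK, S100A10 or annexin A2. PLCG1, a phospholipase that AHNAK binds and activates, rose from 119 ± 3.88 to 162 ± 12.8 CPM (SD, n = 3). Its log2 fold change was 0.44 (adjusted p = 0.0014 from edgeR). PRX, or periaxin, a relative of AHNAK in myelinating cells, had a log2 fold change of 0.45 (adjusted p = 0.034) and did not pass without either of control replicates 1 and 2 or either of GLCC1 siRNA replicates 1 and 3. HLTF, a DNA helicase reported to bind S100A10 and annexin A2, had 167, 168 and 173 CPM in the controls and 234, 320.0 and 220.2 CPM after GLCC1 siRNA. It rose by 0.61 on the log2 scale (SE 0.12, adjusted p = 0.0016), with the highest value in GLCC1 siRNA replicate 2. TRPV6, a calcium channel bound by S100A10, was at 1.52 ± 0.020 against 0.81 ± 0.23 CPM (SD, n = 3), with a log2 fold change of -0.85 (adjusted p = 0.041 from edgeR). It did not pass with DESeq2 (adjusted p = 0.13), nor when any one library other than GLCC1 siRNA replicate 1 was left out.

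Of the partners of the S100 proteins, IQGAP1, which S100P binds, had a log2 fold change of -0.11 (adjusted p = 0.31). SUGT1 and CACYBP, which S100A6 binds, were at -0.09 (adjusted p = 0.51) and -0.03 (adjusted p = 0.81), and with library totals as the only scaling all 3 were above 0. Without GLCC1 siRNA replicate 2, IQGAP1 (-0.18, adjusted p = 0.0045) and SUGT1 (-0.20, adjusted p = 0.0024) passed. MYH9, the myosin heavy chain bound by S100A4, and EZR, the membrane linker ezrin bound by S100P, are named after their values were seen. MYH9 rose from 545 ± 36.2 to 701 ± 84.3 CPM (SD, n = 3; log2 fold change 0.36, adjusted p = 0.0098 from edgeR), and without control siRNA replicate 1 it did not pass (adjusted p = 0.066). EZR fell from 497 ± 17.6 to 373 ± 21.2 CPM (SD, n = 3; log2 fold change -0.41, adjusted p = 0.0011 from edgeR).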

How the data were processed

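The authors mapped paired-end reads to hg19 (GRCh37) with TopHat2 2.0.11 and counted them on genes with HTSeq. They deposited 1 file of raw read counts per gene symbol for each of 6 libraries, without normalization, and the tallies of reads given to no gene were removed here before scaling. Genes with at least 5 counts summed over either condition were kept, scaled by TMM and compared in edgeR 4.0.16 (R 4.3.3) with the robust quasi-likelihood test and Benjamini-Hochberg adjustment over all 23074 genes kept. For 3 libraries against 3, the smallest p of an exact two-sided permutation test is 0.1.

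The 10 genes and all lists were chosen with earlier results of these data known. Named from a list were at most 8 genes with an adjusted p under 0.05 and a mean of at least 1 CPM, by size of the log2 fold change, and 2 to 4 that did not pass with the highest mean. Copies of members were named from a mean of 0.1 CPM. Exon lengths and positions came from GENCODE, whose symbols matched 59.2% of those in the files. The main comparison did not pair libraries by their replicate numbers. Tables were made with Python 3.11.15, pandas 2.3.3, numpy 2.4.6 and matplotlib 3.10.9. DESeq2 1.42.0 was used as an alternative.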

Additional observations from a re-analysis of the deposited data

How the results depend on the processing

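Over 13 alternatives, AHNAK had log2 fold changes between -1.68 and -1.49, and between -1.63 and -1.56 with 1 library left out. None of the 10 genes changed direction under the alternatives. Of those alternatives that give a p, which the regression on length and GC content does not, S100A11 was not under an adjusted p of 0.05 in 5, and the other 9 genes were under it in each. Between 9 and 10 of the 10 genes were under it without 1 library, 6 to 8 of the other annexin and S100 genes, 9 to 20 of the partner genes (2 to 9 rose, 6 to 11 fell) and 5221 to 9922 of all genes. With library totals as the only scaling, which moved the median log2 fold change of all genes from 0.03 to 0.15, 4 other annexin and S100 genes rose and 5 partner genes fell. Of all genes that passed, 53.0% were lower under TMM and 37.1% under library totals. Under library totals, IQGAP1, SUGT1 and CACYBP had log2 fold changes of 0.00899, 0.0303 and 0.0937, and CACYBP had 0.0101 with at least 10 counts in every library. The cause of these changes was not tested. For pairing, the mean of each gene over its condition was first subtracted from its log2 level in each library. The remaining deviations of same-numbered libraries of the 2 conditions correlated at -0.16, -0.29 and -0.01 over 14875 genes. Those of differently numbered libraries correlated at -0.24 to 0.25. With 3 libraries in each condition, these values cannot settle whether the replicate numbers pair the libraries. With the replicate block, all 10 genes, 7 of the other annexin and S100 genes, 12 partner genes and 6531 of all genes passed, and TRPV6 did not (adjusted p = 0.060). The levels per length of all members but S100P and AHNAK2 moved by more than their SD with the longest transcript in place of all exons. The length of the canonical transcript, the sum of ANXA2 and ANXA2P2 and the words of 150 bases were chosen after seeing the data. Genes with few counts had large errors, such as S100A1 (mean 0.93 CPM, SE 0.41, adjusted p = 0.75), which had 13, 17 and 14 counts in the control libraries and 27, 4 and 21 after GLCC1 siRNA.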

Other observations

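ANXA2R and S100PBP, listed among the copies and namesakes of the 10 genes, rose, whereas ANXA2 and S100P were lower after GLCC1 siRNA. ANXA2R, named as a receptor of annexin A2, had 1.51, 1.38 and 1.51 CPM in the control libraries and 3.65, 2.62 and 4.03 CPM after GLCC1 siRNA, a log2 fold change of 1.25 (SE 0.23, adjusted p = 8.8e-04 from edgeR). S100PBP, which encodes a nuclear protein that binds S100P, had 49.6, 50.9 and 52.7 CPM in the controls and 62.9, 60.7 and 63.4 CPM after GLCC1 siRNA, a log2 fold change of 0.29 (SE 0.085, adjusted p = 0.019 from edgeR). No library of one condition overlapped the other in either gene.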
